A study of Mus musculus with 2 samples.

Results

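The genes described here mark lipid-associated macrophages, the Trem2-positive macrophages that gather where fat cells are overloaded or dying. The set holds 10 genes, namely Trem2, Tyrobp, Gpnmb, Dcstamp, Spp1, Lgals3, Cd9, Cd63, Cd68 and Emp1. A probe set belonged to it when its single annotated symbol was one of these, which gave 11 of 45037 probe sets and 8 of 18193 named genes. No probe set carried Spp1 or Cd63 as its single symbol in the annotation used, so these 2 genes were not analysed here. The samples were epididymal white adipose tissue, the visceral fat beside the epididymis, from male C57BL/6 mice: 1 from a mouse given a high-fat diet for 7 weeks and 1 from a mouse kept on normal chow. Dietary challenge began at 9 weeks of age. The labels state neither the chow mouse's age at sampling nor the make-up of the diets. Each sample was total RNA of the whole fat pad hybridised to 1 Affymetrix mouse array, so neither diet has a replicate, no test was possible, and "higher" and "lower" describe these 2 arrays.

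TREM2 is a lipid-sensing receptor of macrophages, and it signals through TYROBP (DAP12), a membrane adaptor with an activation motif that recruits the kinase SYK. In obese fat, TREM2 signalling is known to go with a macrophage state of lipid uptake and lysosomal breakdown, in which Gpnmb, Lgals3, Cd9, Cd63 and Spp1 are high. The members fall into 2 classes by the cells known to make them. Trem2, Tyrobp, Dcstamp and Cd68 are largely restricted to myeloid cells, with Tyrobp also in natural killer cells. Gpnmb, Spp1, Lgals3, Cd9, Cd63 and Emp1 are also made by other cells, among them fibroblasts, epithelial cells and, for Gpnmb, melanocytes.

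Members made by several cell types were mostly higher on the high-fat diet. The 4 myeloid-restricted members were split: 2 with weak signals were lower, and 2 brighter ones were slightly higher. Among members also made by other cells, Lgals3 was 1.65-fold, Gpnmb 1.49-fold and Emp1 1.32-fold higher, and Cd9 was 1.05-fold lower. Of the myeloid-restricted members, Trem2 was 1.64-fold and Dcstamp 1.43-fold lower, Tyrobp was 1.03-fold higher and Cd68 was 1.16-fold higher. Of the 8 members, 5 were higher and 3 lower, where 46.8% of the 14066 measured genes were higher and 52.9% lower. None of the 8 members was 2-fold or more higher (0 of 8) or 2-fold or more lower (0 of 8), sizes that 1.17% and 1.35% of all measured genes reached. The median log2 difference, high-fat diet minus chow, was 0.13 over the members and -0.02 over all measured genes. It was -0.24 over the 4 myeloid-restricted members and 0.49 over the 4 measured members also made by other cells. The first was -0.36 with reference genes set to 0 and 0.04 with a higher floor that removed Trem2, and the second was 0.25 with each gene's probe set of smallest difference.

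The values are linear intensities as deposited, and a fold between diets is read within a probe set; intensities of different probe sets are not comparable as levels of different genes. A floor for weak signal was set at each array's 40th percentile, an intensity of 27.9 on the high-fat diet array and 28.6 on the chow array. All 8 members had a probe set above the floor on both arrays, so none of them entered through 1 diet alone. As a yardstick of probe error, the diet differences of a gene's probe sets were compared with each other. Their pooled SD around the gene's mean was 0.37 (log2) for dim genes (mean intensity below 100), 0.29 for genes from 100 to 400 and 0.20 for brighter ones. This SD holds no difference between animals. Markers of fat cells were present on both arrays, and Adipoq, the adiponectin gene, had an intensity of 8718.4 on the high-fat diet and 8372.1 on chow.

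**Figure D1:**
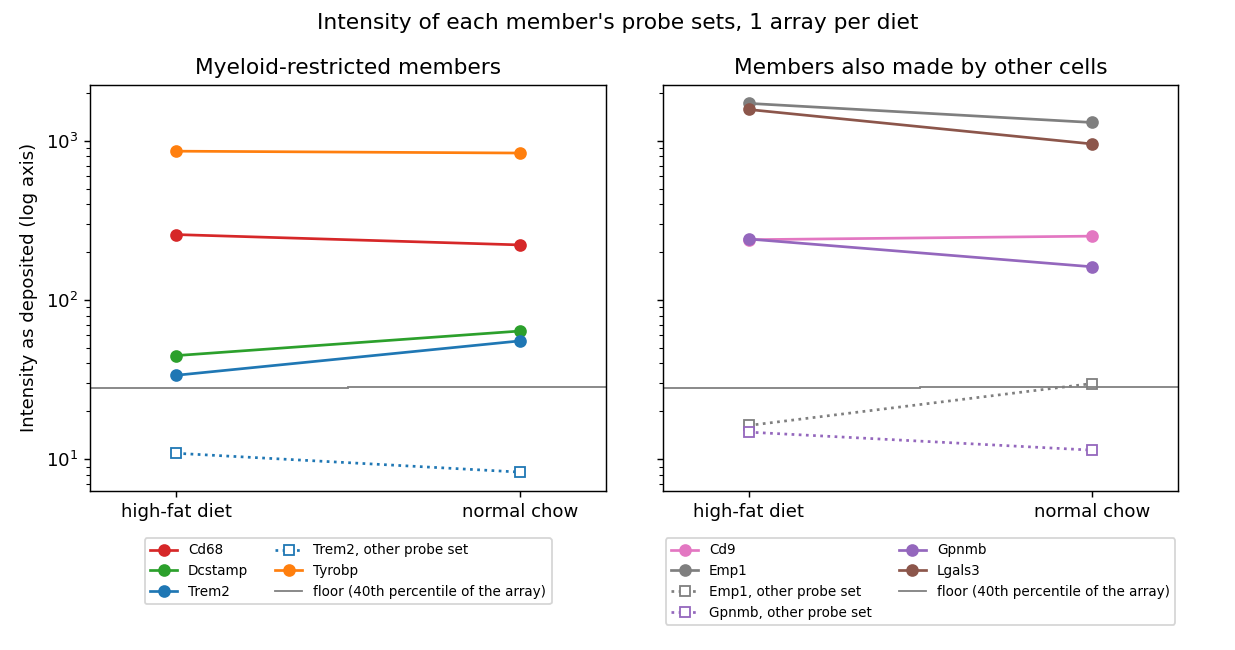
Intensity of the 11 probe sets of the 8 members on the high-fat diet array and the normal chow array (log axis), with myeloid-restricted members on the left and members also made by other cells on the right; each line joins the 2 values of 1 probe set, open squares are second probe sets, and the grey line is the floor of each array. Trem2 and Dcstamp lie close to the floor, and the second probe sets of Trem2 and Gpnmb lie under it on both arrays.

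Trem2, the receptor itself, was weak on both arrays. Its probe set 1421226_at had an intensity of 33.7 on the high-fat diet and 55.4 on chow, which is 1.21 times the floor on the high-fat diet array and 1.94 times the floor on the chow array. The log2 difference was -0.72, or 1.91 probe set SDs at this intensity. Only 3.78% of all measured genes had a more negative difference. Among the 3561 genes of like brightness (mean log2 intensity within 0.5), however, 15.1% differed by at least this much in either direction. The dimmest genes lie so near the floor that their floored differences cannot reach this size, so both shares are held down by the floor. The second probe set of Trem2, 1421792_s_at, read 10.9 on the high-fat diet and 8.3 on chow. Both values lie under the floor, so it was not measured, and its raw values ran in the opposite direction. The lower Trem2 signal therefore rests on 1 weak probe set.

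Dcstamp, which encodes a membrane protein needed for the fusion of osteoclasts and macrophage giant cells, was the other weak member. Its only probe set, 1431970_at, had an intensity of 44.8 on the high-fat diet and 63.9 on chow. The log2 difference of -0.51 was 1.37 probe set SDs, and 28.1% of the 3324 genes of like brightness differed by at least this much. Both myeloid-restricted members that were lower on the high-fat diet thus had signals within 2.23 times the floor.

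Tyrobp and Cd68 were well above the floor and differed little between the diets. Tyrobp, the adaptor through which TREM2 signals, had an intensity of 862.7 on the high-fat diet and 839.8 on chow, in its only probe set 1450792_at. Its log2 difference of 0.04 was 0.19 probe set SDs, and its sign turned to -0.04 with quantile normalization of the arrays, to -0.01 with lowess centring and to -0.09 when reference genes were set to 0. Cd68, a scavenger receptor of late endosomes and lysosomes and a common histological marker of macrophages, had an intensity of 258.1 on the high-fat diet and 222.2 on chow (1449164_at). Its log2 difference of 0.22 was 0.75 probe set SDs.

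Lgals3 had the most positive difference among the members. It encodes galectin-3, a sugar-binding lectin also known as the macrophage antigen Mac-2 and made by epithelial and stromal cells too. Its only probe set, 1426808_at, had an intensity of 1576.6 on the high-fat diet and 957.4 on chow. The log2 difference of 0.72 was 3.52 probe set SDs, the highest such ratio of the 8 members, and 5.33% of the 469 genes of like brightness differed by at least this much. Over all measured genes, 3.43% had a more positive difference.

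Gpnmb, a transmembrane glycoprotein of lysosomes and the cell surface, came next. Its probe set 1448303_at had an intensity of 242 on the high-fat diet and 161.9 on chow. The log2 difference of 0.58 was 2.01 probe set SDs, and 6.28% of the 2850 genes of like brightness differed by at least this much. The other probe set, 1439345_at, read 14.8 on the high-fat diet and 11.4 on chow, under the floor on both arrays, and adds no measurement. Trem2 and Gpnmb, which are used together as markers of these macrophages, hence differed in opposite directions between the 2 arrays. The Trem2 side of this contrast rests on 1 weak probe set, at 1.21 times the floor on the high-fat diet array.

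Emp1 and Cd9 are both membrane proteins that span the membrane several times. Emp1, a relative of the myelin protein PMP22, had an intensity of 1722.8 on the high-fat diet and 1306.5 on chow in its bright probe set 1416529_at. The log2 difference of 0.40 was 1.95 probe set SDs, and 18.8% of the 372 genes of like brightness differed by at least this much. Its second probe set, 1459171_at, read 16.3 on the high-fat diet, under the floor, and 29.9 on chow, just above it. That weak probe set has a floored difference of -0.10, opposite in sign to the bright one. Cd9, a tetraspanin that organises membrane microdomains and marks many cell types beside macrophages, had an intensity of 239.6 on the high-fat diet and 252.3 on chow (1416066_at). Its log2 difference of -0.07 was 0.26 probe set SDs, and 77.1% of the 2542 genes of like brightness differed by at least this much.

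**Figure D2:**
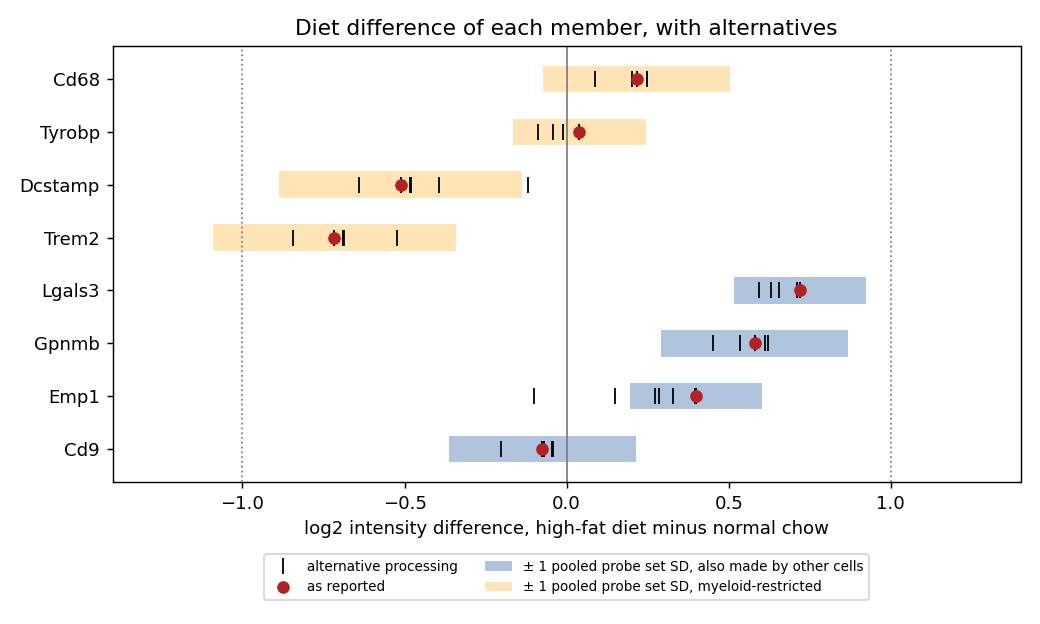
Log2 intensity difference of each member, high-fat diet minus normal chow (red points), with ± 1 pooled probe set SD at that brightness (bars: blue for members also made by other cells, yellow for myeloid-restricted members) and the values under 9 alternative ways of processing (black ticks); dotted lines mark 2-fold. Lgals3 and Gpnmb stay above 0 and Trem2 and Dcstamp below 0 under the alternatives that measured them, and no tick reaches 2-fold.

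**Figure D3:**
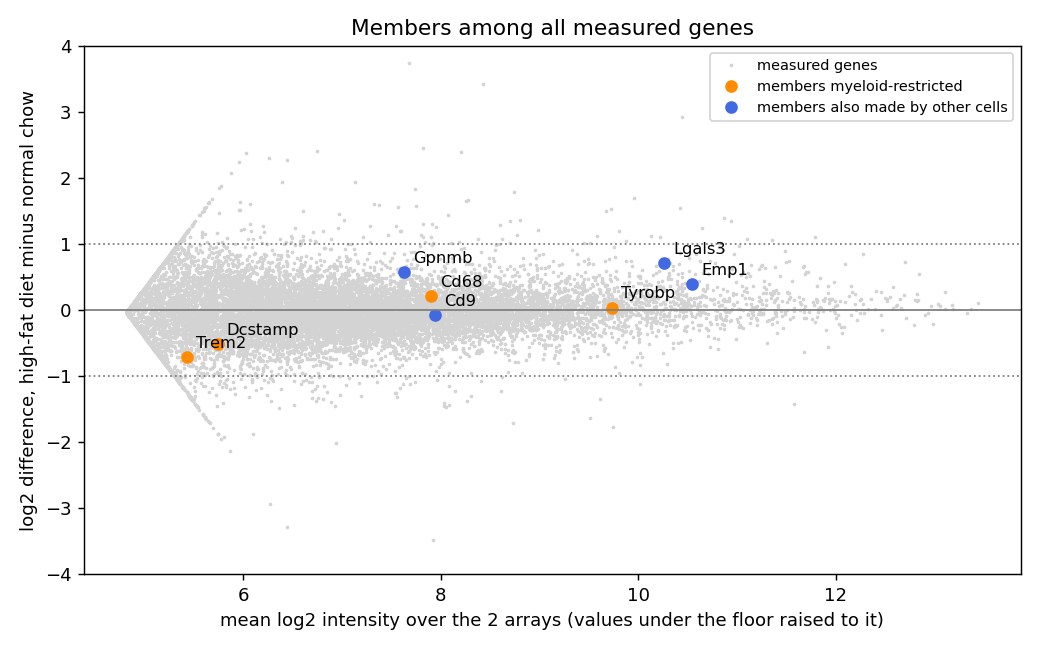
Log2 difference between high-fat diet and normal chow against mean log2 intensity over both arrays for the 14066 measured genes (grey), with the 8 members in colour and dotted lines at 2-fold. The members lie inside the cloud of all genes, and Trem2 and Dcstamp lie at its dim end, where the spread is wider.

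The promoters of 4 members are shown, picked by their diet differences. These are Trem2, the lowest, and Cd68 for the myeloid-restricted class, and Lgals3 and Gpnmb, the highest, for the other. Each sequence is the 250 bases before the annotated start, 5′ to 3′ on the gene's strand, from RefSeq (GRCm38.p6). Capitals mark matches to 4 motifs, searched on both strands: the E-box CACGTG, the M-box core CATGTG bound by MiT/TFE factors, the core GAGGAA of the myeloid factor PU.1, and the AP-1 site TGANTCA. Trem2 lies at chr17:48346151-48346400 on the plus strand, Cd68 at chr11:69666171-69666420 on the minus strand, Lgals3 at chr14:47373610-47373859 on the plus strand and Gpnmb at chr6:49036268-49036517 on the plus strand.
Trem2: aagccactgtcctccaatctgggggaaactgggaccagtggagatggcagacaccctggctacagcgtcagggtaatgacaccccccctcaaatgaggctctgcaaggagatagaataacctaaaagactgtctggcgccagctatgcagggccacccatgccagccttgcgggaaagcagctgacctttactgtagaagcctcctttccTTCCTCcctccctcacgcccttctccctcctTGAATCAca
Cd68: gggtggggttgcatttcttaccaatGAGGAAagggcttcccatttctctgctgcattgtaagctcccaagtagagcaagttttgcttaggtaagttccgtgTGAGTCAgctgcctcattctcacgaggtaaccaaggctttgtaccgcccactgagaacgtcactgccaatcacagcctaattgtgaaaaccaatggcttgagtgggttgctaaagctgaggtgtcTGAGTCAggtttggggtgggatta
Lgals3: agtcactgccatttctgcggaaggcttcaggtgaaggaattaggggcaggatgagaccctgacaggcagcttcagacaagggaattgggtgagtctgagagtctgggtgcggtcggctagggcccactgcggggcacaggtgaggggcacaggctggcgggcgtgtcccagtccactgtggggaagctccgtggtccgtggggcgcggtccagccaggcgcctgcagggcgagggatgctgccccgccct
Gpnmb: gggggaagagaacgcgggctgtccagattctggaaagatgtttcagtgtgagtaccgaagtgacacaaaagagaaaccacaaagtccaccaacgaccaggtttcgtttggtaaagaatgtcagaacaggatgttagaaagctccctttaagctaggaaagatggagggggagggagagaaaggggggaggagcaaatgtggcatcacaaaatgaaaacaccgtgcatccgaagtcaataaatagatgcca
Of the windows shown, those of Trem2 and Cd68 held a PU.1 core and at least 1 AP-1 match, with no overlap between matches, and those of Lgals3 and Gpnmb held none of the 4 motifs. The other members of the second class, Spp1, Cd63, Cd9 and Emp1, each had a match in at least 1 window. The windows shown therefore do not stand for that class. A PU.1 core occurs in 23.3% of all 32851 promoter windows of this length, an AP-1 match in 6.75%, an M-box core in 12.3% and an E-box in 6.02%. RefSeq gave 10 windows for 8 of the members, Spp1 and Cd63 included. No window was available here for the myeloid-restricted members Tyrobp and Dcstamp. Among these 10, a PU.1 core was in 4 windows, AP-1 in 3, an M-box core in 1 and an E-box in 0. By class, the 2 windows available for myeloid-restricted members (Trem2 and Cd68) held a PU.1 core and AP-1. Of the 8 windows of members also made by other cells, 2 held a PU.1 core (Spp1 and Cd63) and 1 held AP-1 (Emp1). These matches describe letters in the window and nothing about binding.

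Over 2 arrays the pattern of a gene is its pair of intensities, and the genes nearest to a member in that pair were found by Euclidean distance on the log2 scale. Nearest to Trem2 were Pgm5, with intensities of 33.7 on the high-fat diet and 55 on chow, Colec11 (33.4 on the high-fat diet and 55.3 on chow) and Pdxp (34.4 on the high-fat diet and 55.2 on chow). Nearest to Gpnmb were Ppp1r16a, with 244 on the high-fat diet and 160 on chow, Ly6g6c (246.7 on the high-fat diet and 160 on chow) and Rmc1 (242.2 on the high-fat diet and 157.6 on chow). With a single difference per gene such likeness is easily met.

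Genes that act with TREM2 lay on both sides of 0. Beside the counts of this and the following lists stands the share over all measured genes, 46.8% higher and 52.9% lower. Of 15 measured genes of its ligands, signalling chain and shedding proteases, 5 were higher and 10 lower, with a median log2 difference of -0.02 and 0 past 2-fold. Syk, the kinase recruited by TYROBP, had an intensity of 118.6 on the high-fat diet and 118.8 on chow in its brightest probe set. Its other 2 measured probe sets were higher on the high-fat diet, by 0.47 and by at least 0.84 on the log2 scale, so they did not share the value of the brightest one. Plcg2, the phospholipase downstream of SYK, had an intensity of 160.9 on the high-fat diet and 161.3 on chow. Spi1, which encodes PU.1, had an intensity of 119.2 on the high-fat diet and 100.9 on chow. Among 10 measured members of the TREM family, other TYROBP-coupled receptors and related adaptors, 4 were higher and 6 lower, with a median of -0.04. The highest was Klrk1, the lymphocyte receptor NKG2D, with 95.2 on the high-fat diet and 56.4 on chow. Siglech, a receptor of plasmacytoid dendritic cells, was above the floor only on chow, where it read 55.4, and was at least 1.99-fold lower.

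Most other genes of the lipid-associated macrophage state were higher on the high-fat diet. Of 24 measured, 20 were higher and 4 lower, 2 of them 2-fold or more higher and 1 at least 2-fold lower, with a median of 0.23. With reference genes set to 0, the count was 16 of 24 and the median 0.10. The highest, Fabp5, a fatty acid binding protein, had an intensity of 3792.3 on the high-fat diet and 1812.5 on chow, and both of its probe sets were 2-fold or more higher. Many genes of this list, such as Fabp5, Lpl, Cd36 and Plin2, are also made by fat cells. Genes of the list that are more typical of macrophages lay on both sides. Mmp12, the macrophage elastase, had an intensity of 109.1 on the high-fat diet and 61.3 on chow, and Itgax, which encodes CD11c, 162.9 on the high-fat diet and 97.9 on chow. Atp6v0d2, a proton pump subunit, read 60.3 on the high-fat diet and 29.3 on chow, close to the floor, with 0.36 in its second probe set. Clec7a, the myeloid receptor dectin-1, was lower, with 135.6 on the high-fat diet and 165.5 on chow, and Cd5l, a secreted macrophage protein, was above the floor only on chow and at least 2.27-fold lower.

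Genes linked to single members gave a mixed picture. Beside Dcstamp, 7 genes of cell fusion and osteoclasts were measured, with 3 higher, 4 lower and a median of -0.02. Among them Mmp9, a gelatinase, was 2.51-fold lower, with 65.6 on the high-fat diet and 164.9 on chow, and Oscar, an osteoclast receptor, was 1.48-fold lower, with both of its probe sets in that direction. Of 4 MiT/TFE factors, known regulators of Gpnmb and lysosomal genes, 3 were measured, with 0 higher and 3 lower. Over all measured genes 52.9% were lower. Mitf, in its only measured probe set, had an intensity of 119.1 on the high-fat diet and 166.2 on chow, Tfeb 56.7 on the high-fat diet and 86.7 on chow, and Tfe3 249.4 on the high-fat diet and 250.5 on chow. Of these, Tfeb was dim (mean intensity below 100) and Tfe3 differed by only -0.006 log2. Any part of the factors in the Gpnmb difference was not tested. Receptors of osteopontin, the product of Spp1, were 7 higher and 2 lower, with a median of 0.16. They were led by Itgb5 at 1.33-fold and Itgb1 at 1.27-fold. Some of the 7 had intensities close to the floor. The 8 measured reference genes had a median of 0.13 themselves.

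Relatives of the members from the same protein families differed in both directions. In a group of 8 genes, the other galectins and the galectin-3 binding protein, 3 were higher and 5 lower, with a median of -0.27. Lgals1, the most positive, was 1.20-fold higher, and Lgals12, a galectin of fat cells, was 1.55-fold lower in its brighter probe set and lower in both. Of 10 other tetraspanins 6 were higher and 4 lower, with a median of 0.06. Cd82 had the lowest value, -0.51, but its second probe set had a difference of 0.66, opposite in sign. The relatives of Emp1 were 2 higher and 2 lower, with Pmp22 at 1097.9 on the high-fat diet and 1427.7 on chow.

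**Figure D4:**
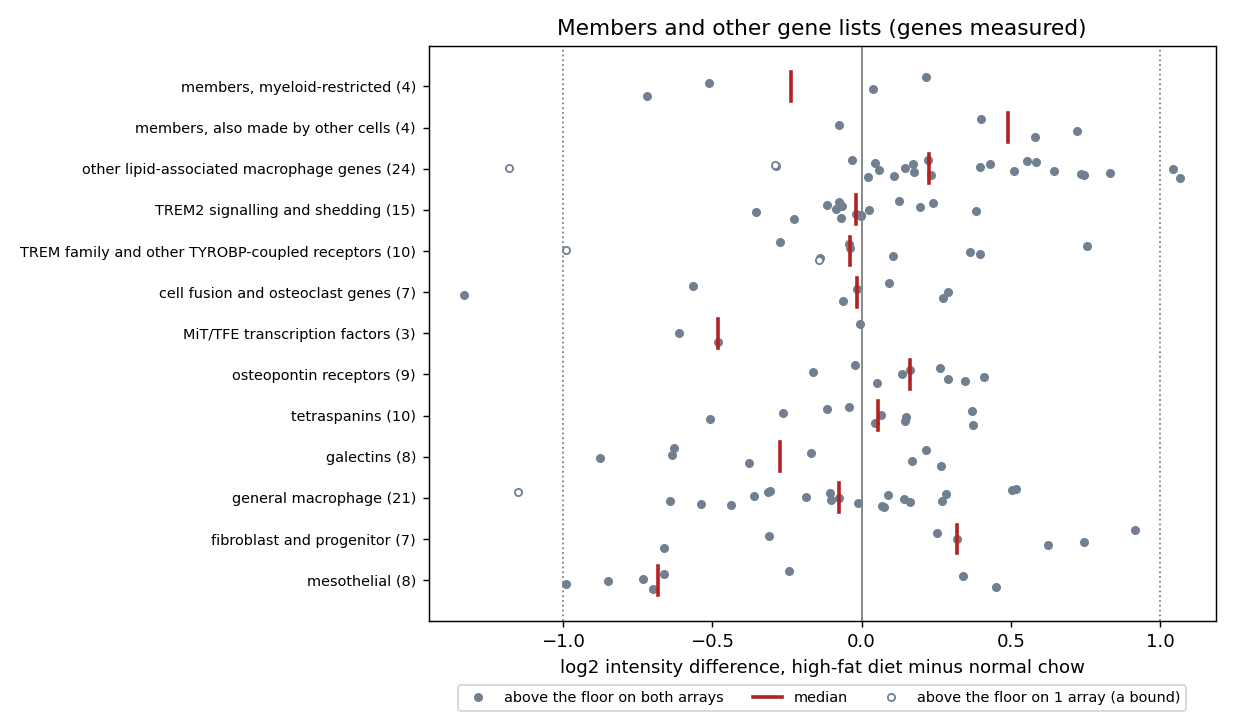
Log2 difference, high-fat diet minus normal chow, of every measured gene in the 2 classes of members and in 11 other lists, with the number measured in brackets; open circles are bounds from genes above the floor on 1 array, red bars are medians and dotted lines mark 2-fold. The median of the myeloid-restricted members is below 0 and that of the members also made by other cells is above it.

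Markers of the cells that could make the members were read on the same arrays. In bulk tissue, fewer cells of a type and less RNA per cell cannot be told apart. Of 21 measured general macrophage markers, 9 were higher and 12 lower, none was at 0, and the median was -0.08. Their summed intensity was 13360 on the high-fat diet and 13132.6 on chow. Such sums, here and below, are led by their brightest probe sets. Adgre1, which encodes F4/80, had an intensity of 468.3 on the high-fat diet and 444.7 on chow. Ccr2, the chemokine receptor of recruited monocytes, had 263.5 on the high-fat diet and 184 on chow. The most negative differences among markers above the floor on both arrays were those of Cd14 and Cd163. Cd14 had an intensity of 268 on the high-fat diet and 418.5 on chow, and Cd163 268 on the high-fat diet and 389.1 on chow. Cx3cr1 was under the floor on the high-fat diet array and at least 2.22-fold lower. Fibroblast and progenitor markers were 5 higher and 2 lower, with a median of 0.32. Their summed intensity was 10869 on the high-fat diet and 10224.5 on chow. It was led by Dcn, which was lower, with 5096.7 on the high-fat diet and 6312 on chow. Mfap5 was 1.89-fold and Col1a1 1.67-fold higher. Pdgfra, the other lower marker, had a difference of -0.66 in its brightest probe set and 0.19 in its second measured one. Mesothelial markers were 2 higher and 6 lower, with a median of -0.68 and a summed intensity of 1198 on the high-fat diet and 1655.7 on chow. The 4 measured dendritic cell markers were 1 higher and 3 lower, with a median of -0.23. The 5 measured NK cell markers, relevant to Tyrobp, were 1 higher and 4 lower, but their median of -0.02 was close to equal. Of 5 measured melanocyte markers, relevant to Gpnmb, 1 was higher and 4 lower, and Pmel, the closest relative of Gpnmb, had an intensity of 77.3 on the high-fat diet and 83 on chow. The part of any of these cell types in the differences of the members was not tested.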

How the data were processed

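The table deposited by the authors holds 1 linear intensity per probe set for 2 arrays, without detection calls; no source used here names the summary algorithm or the scaling. Per the labels' protocols, biotin-labelled cRNA was made from 10 µg of total RNA extracted with Trizol. The array medians differed by -0.03 log2, under the limit of 0.1, so the values were used as deposited. Symbols came from the platform annotation of 2016, in which 34945 probe sets had 1 symbol, 932 several and 9160 none here. Values under each array's 40th percentile were raised to it before log2, and a probe set was measured when it reached this floor on at least 1 array (29356 probe sets, 14066 genes). A gene was given by its measured probe set of highest mean log2 intensity. The probe set SD was pooled over 5196 genes. Genes were counted at 2-fold. The named genes were all members with all probe sets, at most 2 genes per direction of each other list, and the 3 genes nearest to Trem2 and to Gpnmb; genes outside this rule (Lgals12, Syk, Plcg2, Spi1, Siglech, Plin2, Lpl, Cd36, Mmp12, Itgax, Cd5l, Tfe3, Adgre1, Cx3cr1, Pmel, Adipoq) were named for their role or after their values were seen. The members and lists were chosen with earlier results of these data known, and the promoter motifs were chosen after the data were seen. With 1 array per diet, the number of arrays limits the precision and no test was made. The procedure was tested on simulated data with changes larger than those of the members and the same noise at every intensity. That test does not cover differences of the size reported or differences between animals. Python 3.11.15, pandas 2.3.3, numpy 2.4.6 and statsmodels 0.14.6 were used. Of the alternatives tried, 9 changed the floor, the scale or the choice of probe set.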

Additional observations from a re-analysis of the deposited data

How the results depend on the processing

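Of 71 recomputed differences of members under 9 alternatives, 0 reached 2-fold, 68 moved by less than the probe set SD and 4 changed sign, namely 3 of Tyrobp and 1 of Emp1. For a member with 1 measured probe set, a lower floor and the choices among probe sets could not change the value. Part of the 68 was therefore fixed in advance. With the floor at the 60th percentile, Trem2 was under it on both arrays and gave no value, Dcstamp became a bound of -0.12, and the median of the myeloid-restricted members was 0.04, so their negative median rests on these 2 weak probe sets. The difference of Trem2 ran from -0.84 to -0.52 under the other 8 alternatives, that of Gpnmb from 0.45 to 0.62 and that of Lgals3 from 0.59 to 0.72. Emp1 was 0.15 as the mean of its probe sets and -0.10 with its probe set of smallest difference. The median over all members turned to -0.00018 when 8 measured reference genes were set to 0, which subtracted 0.13, and to -0.02 with the probe sets of smallest difference. Quantile normalization, lowess centring and reference centring each left 1 of the 4 myeloid-restricted members higher. The background moved too: 164 genes were 2-fold or more higher and 190 lower as reported, 608 and 727 with the floor at the 20th percentile, 90 and 66 at the 60th, 247 and 268 with a pseudocount of 16 and no floor, and 98 and 301 with reference centring. With the floor at the 60th percentile the probe set SD was 0.25 in place of 0.32. No paired analysis was possible because each diet has 1 array.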
